A study of Homo sapiens with 9 samples.

Results

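The glycolytic enzymes described here are 10 cytosolic proteins of glucose breakdown, GPI, PFKL, ALDOA, TPI1, GAPDH, PGK1, PGAM1, ENO1, PKM and LDHA. They were chosen by name, as the genes with a row in both deposited tables of ribosome footprint signal, and all 10 were found among the 9221 transcripts listed in either table and the 8775 listed in both. Ribosome profiling sequences the mRNA fragments that translating ribosomes protect from nuclease, so that the signal of a gene reflects how many ribosomes sit on its coding sequence. Fewer ribosomes per mRNA and fewer mRNA molecules cannot be told apart from footprints alone.

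Huh-7, an established line of human liver carcinoma cells, was the source of the footprints, in 3 groups of 3 libraries, 9 in all. One group received 1.5 μM PF8503 (PF-06378503) for 1 hr, another 1.5 μM PF846 (PF-06446846) for 1 hr, and the third the 0.5% DMSO vehicle for 1 hr. The labels name no genetic change in any group. Both compounds belong to a class of small molecules that bind in the exit tunnel of the human ribosome and stall the translation of selected proteins, and the comparison with vehicle asks which proteins are made less. The treated cells were all of 1 line, and the lane codes in the labels put each group on lanes of its own, so that lane and treatment cannot be told apart.

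Each table gives, per transcript, 1 mean over the libraries of a condition in normalized counts, which are read counts divided by a size factor per library. As no library has a value of its own there, how deeply each was sequenced is unknown, no replicate error can be given and no test was possible for any difference below. The vehicle means are given once in each table, on scales that differ by a constant factor of 1.09, and the lists of 9157 transcripts (PF8503) and 8839 transcripts (PF846) share the same vehicle libraries. The labelled cell type was checked against its markers. All 10 hepatocyte markers fixed for the purpose were listed, between 1249 normalized counts (APOH) and 212970 (AFP) in vehicle. Of the markers of other cell types, CD68 (889 normalized counts) and PECAM1 (170) had a row, and PTPRC, VWF, COL1A1 and COL1A2 had none in the tables used here.

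Glycolysis splits glucose into pyruvate in the cytosol and yields ATP and NADH. A preparatory stretch isomerises and phosphorylates the sugar and cleaves it into triose phosphates, a later stretch oxidises the trioses and recovers ATP, and lactate dehydrogenase then regenerates NAD from NADH when pyruvate is turned into lactate. The enzymes are soluble, are made on free ribosomes and carry no signal peptide, and tumour cells are known for making much of them.

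The coding sequences of the enzymes that mark the extremes of the results are shown first. GAPDH had the highest signal per codon, PFKL the lowest, and PGK1 the highest log2 ratio with PF8503. Their first 30 codons are given 5' to 3' from the canonical transcripts of GENCODE version 44 on GRCh38, with the start codon in capitals. GAPDH lies on the plus strand of chr12:6534512-6538374, PGK1 on the plus strand of chrX:77910739-78129295 and PFKL on the plus strand of chr21:44300051-44327376.
GAPDH: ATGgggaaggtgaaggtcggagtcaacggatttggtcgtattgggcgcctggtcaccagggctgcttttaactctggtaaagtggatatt
PGK1: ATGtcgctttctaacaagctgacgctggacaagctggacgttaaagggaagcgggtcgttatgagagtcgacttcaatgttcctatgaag
PFKL: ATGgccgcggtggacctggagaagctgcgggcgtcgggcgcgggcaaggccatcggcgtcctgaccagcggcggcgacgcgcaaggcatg

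The 10 enzymes were among the genes with high footprint signal in vehicle-treated cells. Together they held 1.78% of the vehicle signal of the PF8503 table, while making up 0.109% of its transcripts. With the compounds the share was 1.81% (PF8503) and 1.80% (PF846). GAPDH alone held 42.1% of the signal of the 10 enzymes, and ENO1 held 16.6%. The lowest of the 10 in normalized counts, PFKL with 1985, lay above the median transcript of the table, at 397. These counts are not divided by coding length, which was 780 residues for PFKL against a median of 476 over genes of the tables.

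Levels were compared between genes as vehicle signal per counted codon, where the counted codons are those of the canonical coding sequence less 10 at each end. On this scale GAPDH had 250.2 normalized counts per codon and was the 4th highest of 9096 transcripts, next to 251.9 for ALB and 361.6 for AFP, which encode the main plasma proteins of the adult and fetal liver. ENO1 followed with 75.2, LDHA with 56.7, ALDOA with 48.2, TPI1 with 44.8 and PKM with 36.0 normalized counts per codon, which placed them between ranks 54 and 162. PGAM1 (10.2), PGK1 (8.12) and GPI (7.49) formed a lower tier at ranks 607 to 811, and PFKL had 2.61 normalized counts per codon at rank 2152. GAPDH and PFKL differed 95.8-fold. The wide steps in this order were those from GAPDH to ENO1 (3.33-fold), from PKM to PGAM1 (3.52-fold) and from GPI to PFKL (2.87-fold), and the others lay between 1.08- and 1.33-fold. With no replicate error, it is not known which neighbours in the order differ beyond their spread. The step from PKM to PGAM1 depends on how shared sequence is counted.

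**Figure D1:**
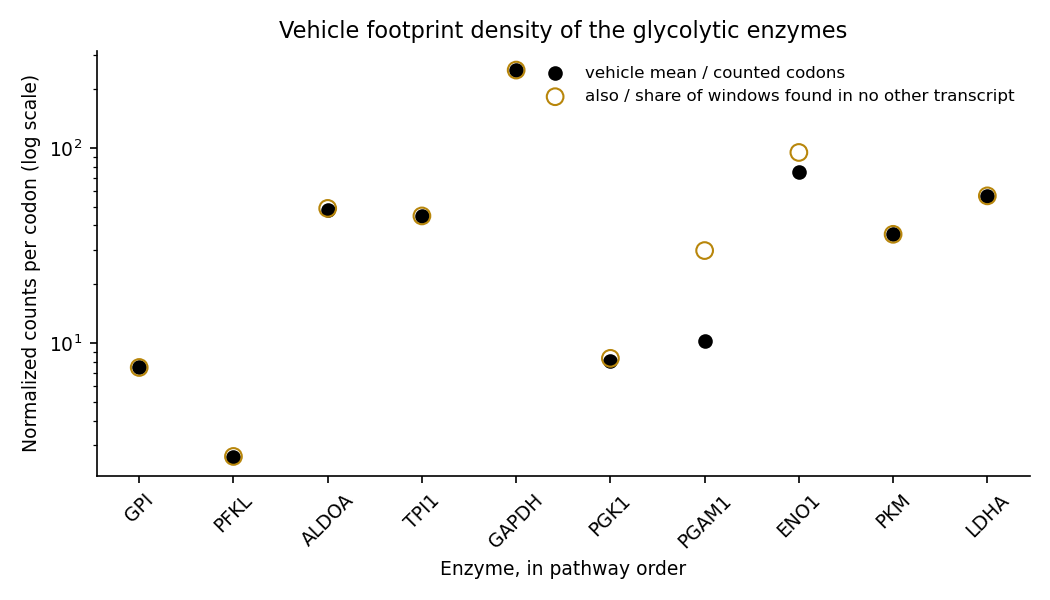
Vehicle signal of the 10 enzymes in pathway order, in normalized counts per codon on a log axis, 1 authors' mean per point. Filled points divide by the counted codons. Open circles divide also by the share of 28-base windows found in no other coding transcript, overlapping loci on the same strand left out. This lifts PGAM1 from 10.2 to 29.7 and ENO1 from 75.2 to 94.7, while GAPDH stays highest and PFKL lowest.

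The level of some enzymes depends on which coding form is assumed. GENCODE version 44 gives ALDOA a canonical form of 418 residues and another of 364 residues, and the density was 48.2 normalized counts per codon with the longer and 55.8 with the shorter. For TPI1, forms of 167, 249 and 286 residues gave 69.7, 44.8 and 38.5 normalized counts per codon. LDHA ranged from 51.9 to 80.1 over its forms, PKM from 31.5 to 42.1, GAPDH from 250.2 to 288.7 and GPI from 6.98 to 7.49. The range of LDHA takes in the value of ENO1, and the range of TPI1 overlaps those of LDHA, ALDOA and PKM, so the order of these enzymes depends on the forms assumed. The forms the authors counted come from GENCODE version 24 and were not matched to these.

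Footprint-sized windows of most of the enzymes occurred in no other coding gene, but many occurred in pseudogenes. Windows of 28 bases, about the length of a footprint, were taken along the counted region and looked up in the other coding transcripts of GENCODE version 44. A coding locus that overlaps the gene on the same strand, 1 for GPI and 1 for ALDOA, covers the same genome position and was left out of the lookup. The authors, however, required a single position in their reference transcriptome. Reads shared with such a locus would have been dropped if it stood in that reference, which was not tested. With those loci left out, every window of GPI, TPI1, GAPDH, PKM and LDHA was found in no other coding gene, as were 99.6% of those of PFKL, 98.5% of ALDOA and 97.3% of PGK1. ENO1 was at 79.4%, with 17.6% of its windows also in EDARADD transcripts and 1.89% in ENO2. PGAM1, the mutase that moves the phosphate of phosphoglycerate, was at 34.4%, because 443 of its 675 windows (65.6%) are also in PGAM4, a single-exon copy on the X chromosome. The authors kept reads with a single position, so the PGAM1 signal may come from a part of its codons only, and whether PGAM4 stood in their reference was not tested.

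The near-identity of the pair is shown because it limits the level of PGAM1. PGAM1 lies on chr10:97426191-97433444 (plus strand, 4 exons) and PGAM4 on chrX:77967949-77969638 (minus strand, 1 exon), both on GRCh38. Of their 762 coding bases 13 differ (98.3% identity), as do 11 of 254 residues. The spliced coding sequences of codons 24 to 63, from GENCODE version 44, are given 5' to 3', and capitals mark the 4 bases that differ between the genes in this stretch.
PGAM1: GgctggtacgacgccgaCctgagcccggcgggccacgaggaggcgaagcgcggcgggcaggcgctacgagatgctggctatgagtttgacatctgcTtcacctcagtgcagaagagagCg
PGAM4: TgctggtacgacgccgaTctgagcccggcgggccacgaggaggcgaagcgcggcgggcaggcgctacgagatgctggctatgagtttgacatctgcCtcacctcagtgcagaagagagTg

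Between the second and the third marked base the copies share a run longer than a footprint, and a read from such a run has more than 1 coding position. Divided also by its share of unique windows, PGAM1 reached 29.7 normalized counts per codon and ENO1 reached 94.7. PGAM1 kept the 7th place of the 10, but PKM was then 1.21-fold above it and the wide step lay between PGAM1 and PGK1 (3.57-fold), so its place in the lower tier rests on the uncorrected value. Annotated pseudogene transcripts hold further copies. They contained 100% of the windows of PGAM1 (13 pseudogenes), 70.0% of those of GAPDH (47 pseudogenes), 69.8% of TPI1, 54.9% of LDHA (7 pseudogenes), 35.5% of PGK1, 24.6% of PKM, 18.2% of ENO1 and 9.51% of ALDOA. Neither GPI nor PFKL shared a window with a pseudogene. Within such windows, reads of a transcribed copy cannot be told apart from those of the enzyme.

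**Figure D2:**
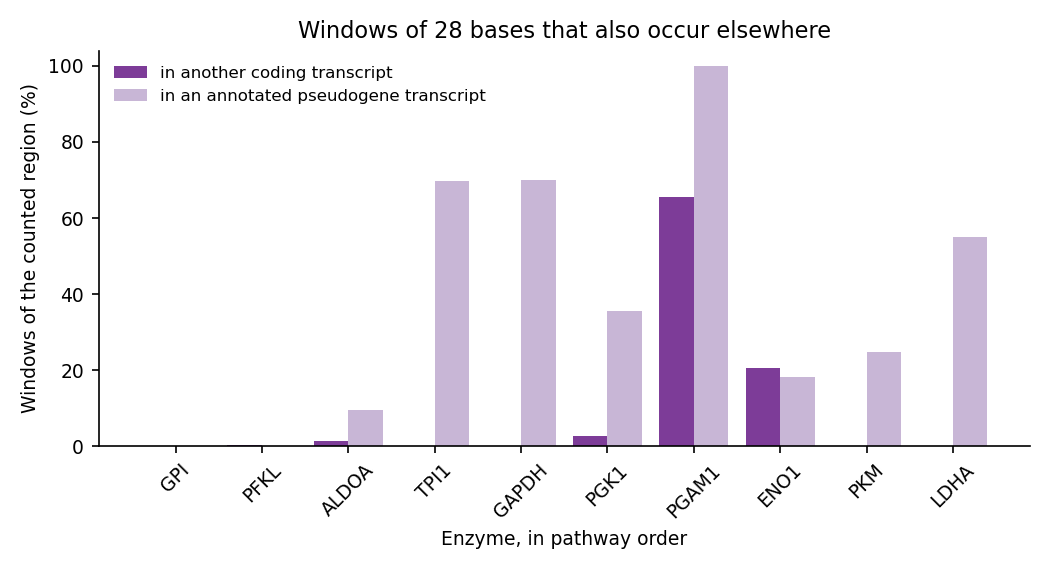
Percentage of the 28-base windows of the counted region of each enzyme that also occur in another coding gene (dark bars) or in an annotated pseudogene transcript (light bars), in pathway order. PGAM1 stands out with 65.6% and 100%, while GPI has no window elsewhere once 1 overlapping coding locus on its strand is left out, as was done for ALDOA too.

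Next, each enzyme was compared between compound and vehicle, as the log2 of the compound mean over the vehicle mean of the same table. All 10 enzymes lay close to 0 with both compounds. With PF8503 the log2 ratios ran from -0.049 (PFKL) to 0.11 (PGK1) with a median of 0.039, and 8 of 10 were above 0. With PF846 they ran from -0.032 (PGAM1) to 0.063 (PKM) with a median of 0.0035, and 6 of 10 were above 0. Over all transcripts the medians were 0.013 and 0.00086, and the central 95% of transcripts spanned -0.32 to 0.28 with PF8503 and -0.23 to 0.22 with PF846.

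Since spread narrows as signal grows, the enzymes were also set beside the transcripts with a vehicle mean of at least 1000 normalized counts, which all 10 enzymes exceed. Over the 2173 such transcripts of the PF8503 table the central 95% spanned -0.29 to 0.18 and the median distance from 0 was 0.058 on the log2 scale, against 0.047 for the enzymes. Over the 2017 such transcripts of the PF846 table they were -0.13 to 0.12 and 0.037, against 0.020 for the enzymes. All 10 enzymes lay within the central span with both compounds. Without replicate values, this is a description of where the enzymes lie and not a test that they were unaffected.

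**Figure D3:**
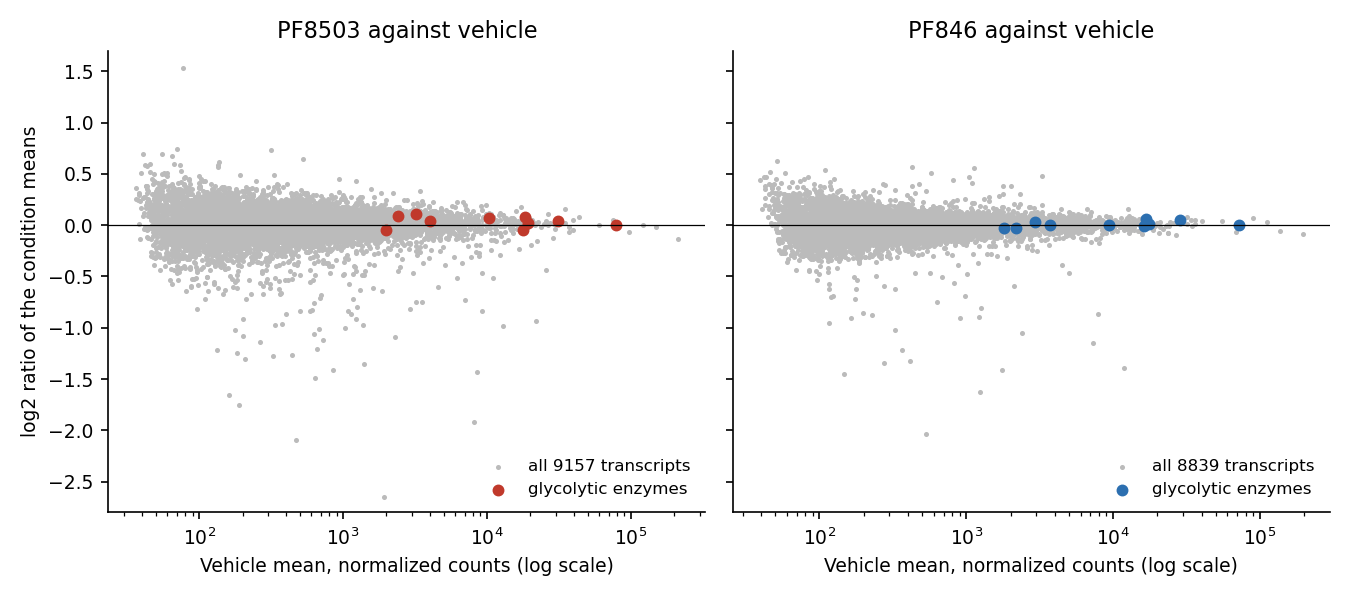
Log2 ratio of the compound mean over the vehicle mean against the vehicle mean in normalized counts (log axis), for every transcript of the PF8503 table (left) and the PF846 table (right), with the 10 enzymes in colour. The enzymes lie in the upper range of signal and between -0.049 and 0.11 (PF8503) or -0.032 and 0.063 (PF846), while some other transcripts lie below -1.

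In the preparatory stretch the values barely moved. GPI, which isomerises glucose 6-phosphate to fructose 6-phosphate, had means of 4028 normalized counts with vehicle and 4135 with PF8503, a log2 ratio of 0.038, and of 3687 with vehicle and 3703 with PF846, a log2 ratio of 0.0063. PFKL, the liver form of phosphofructokinase, which catalyses the committed and most regulated step, had 1985 with vehicle and 1918 with PF8503 (-0.049), and 1816 with vehicle and 1782 with PF846 (-0.028). It was the lowest of the 10 enzymes with PF8503 and lay below 0 with both compounds.

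ALDOA, the aldolase that cleaves fructose 1,6-bisphosphate, had 19184 normalized counts with vehicle and 19502 with PF8503 (log2 ratio 0.024), and 17559 with vehicle and 17679 with PF846 (0.0098). TPI1, which interconverts the triose phosphates, had 10249 with vehicle and 10780 with PF8503 (0.073). In the PF846 table TPI1 had 9381 normalized counts with vehicle and 9380 with PF846, a log2 ratio of -0.00015. The widest percent differences from vehicle in this stretch were 5.18% (TPI1) and -3.36% (PFKL), both with PF8503.

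In the later stretch GAPDH, which oxidises glyceraldehyde 3-phosphate and yields NADH, lay closest to 0 with PF8503. It had 78807 normalized counts with vehicle and 79074 with PF8503, a log2 ratio of 0.0049 and a difference of 0.339%. In the PF846 table it had 72134 with vehicle and 72171 with PF846, a log2 ratio of 0.00075 and a difference of 0.0517%. PGK1, the kinase of the first ATP-yielding step, had 3223 with vehicle and 3475 with PF8503 (0.11, or 7.84%), and 2950 with vehicle and 3024 with PF846 (0.036, or 2.50%). The PF8503 value of PGK1 was the widest departure from 0 of any enzyme with either compound, and 80.3% of all transcripts of that table had a lower log2 ratio.

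PGAM1 had 2392 normalized counts with vehicle and 2539 with PF8503 (log2 ratio 0.086), and 2190 with vehicle and 2142 with PF846 (-0.032). ENO1, the enolase that makes phosphoenolpyruvate, had 31123 with vehicle and 32011 with PF8503 (0.041), and 28487 with vehicle and 29518 with PF846 (0.051). PKM, the pyruvate kinase of the second ATP-yielding step, had 18412 with vehicle and 19461 with PF8503 (0.080), and 16852 with vehicle and 17610 with PF846 (0.063). Its M2 splice form is the one known from tumours, and the tables used here give 1 row for the gene. LDHA, which turns pyruvate into lactate, had 17696 with vehicle and 17145 with PF8503 (-0.046), and 16198 with vehicle and 16060 with PF846 (-0.012). ENO1 and PKM had the upper values with PF846, and LDHA joined PFKL as the other enzyme below 0 with both compounds.

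**Figure D4:**
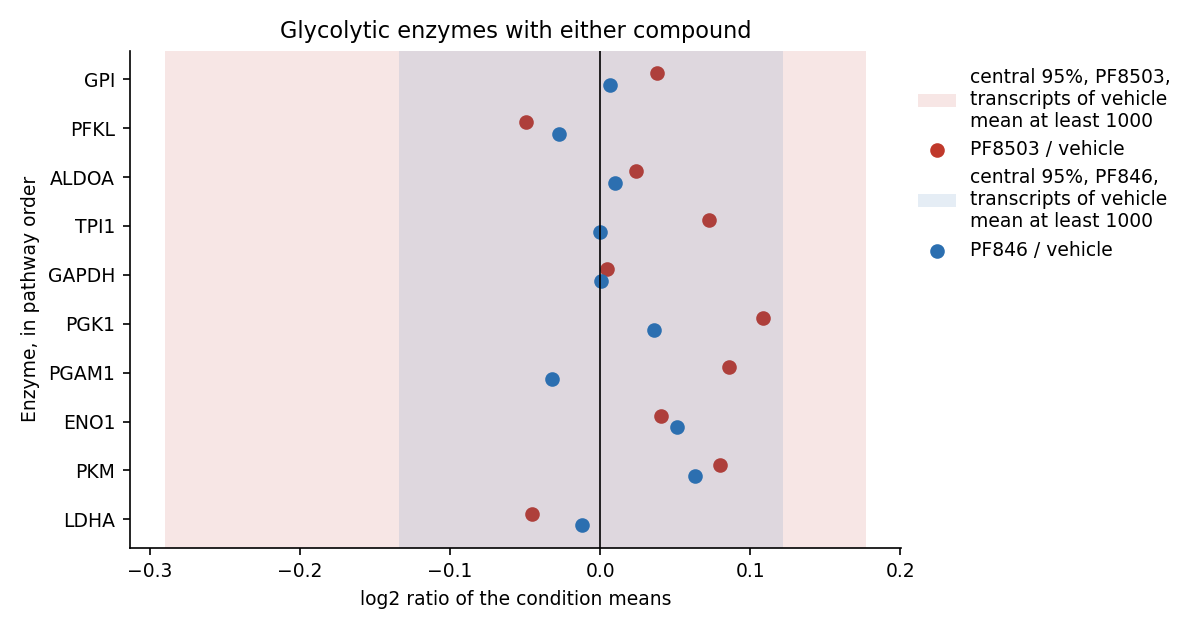
Log2 ratio of the compound mean over the vehicle mean for each enzyme in pathway order, red for PF8503 and blue for PF846, 1 pair of authors' means per point. Shaded bands give the central 95% of transcripts with a vehicle mean of at least 1000 normalized counts (-0.29 to 0.18 with PF8503, -0.13 to 0.12 with PF846), and all 10 enzymes lie inside both.

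Counts past a fixed size put the same values beside the whole table. Past 0.1 on the log2 scale, 1 of 10 enzymes was higher with PF8503 (PGK1, at 0.11) and 0 were lower, while 21.7% of all transcripts were higher and 17.3% lower. With PF846, 0 of 10 were higher and 0 lower, against 13.1% and 13.8% of all transcripts. Past 0.5 no enzyme was found with either compound, where 0.24% of all transcripts were higher and 1.08% lower with PF8503, and 0.0792% were higher and 0.396% lower with PF846. Among the transcripts with a vehicle mean of at least 1000, 26.1% (PF8503) and 10.1% (PF846) lay past 0.1 in either direction. The enzymes' counts of 1 and 0 past 0.1 lie below these shares. With 10 genes and no replicate values, they are no result about the enzymes.

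The compounds were given at the same dose and for the same time, and their values can be set side by side. PF8503 and PF846 differ in structure but belong to the same class. Because both comparisons use the same vehicle libraries, the difference of the log2 ratios is that of the compound means. PGAM1 had the widest difference, 0.12 higher with PF8503, followed by PGK1 and TPI1, each 0.073 higher. GPI (0.031), PKM (0.017), ALDOA (0.014) and GAPDH (0.0041) were slightly higher with PF8503 and ENO1 (-0.011), PFKL (-0.022) and LDHA (-0.033) slightly lower. The median difference over the 10 enzymes was 0.015, against 0.011 over all 8775 transcripts in both tables, and it was 0.0034 when each table was first centred on its own median. In 9 of 10 enzymes the PF8503 value lay farther from 0, the exception being ENO1, and the spread of all transcripts was also wider with PF8503. No interval can be given for these differences, so they do not show that the compounds act alike or differently on the enzymes.

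A stall shortens the counted region, because the authors summed reads downstream of the point where treated and untreated cells differ most. The region can be compared between the tables through the vehicle means, which keep the constant factor of 1.09 where the same codons were counted. All 10 enzymes kept it, with a largest departure of 2.5e-05 on the log2 scale against a tolerance of 0.002, as did 8641 of the 8775 transcripts in both tables (98.5%). A region shortened in the same way for both compounds would not show in this comparison.

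The compounds act on the growing chain in the exit tunnel, and the N-terminal stretch of each enzyme was therefore described from the translated canonical transcript. The mean Kyte-Doolittle hydropathy of residues 2 to 30 had a median of -0.22 over the 10 enzymes and of -0.37 over 9158 genes of the tables. A window of 19 residues with a mean above 1.6, a common mark of a membrane-spanning stretch or signal peptide, was found within the first 60 residues of 1 of 10 enzymes and of 1149 of 9158 genes (12.5%), so the share among the enzymes is near the background. The enzyme was LDHA, whose window at codons 23 to 41 had a mean of 2.27. This stretch is part of the nucleotide-binding fold of a soluble enzyme. LDHA had log2 ratios of -0.046 with PF8503 and -0.012 with PF846. Its first 60 codons from the plus strand of chr11:18394560-18408425 are given 5' to 3' with the window in capitals.
LDHA: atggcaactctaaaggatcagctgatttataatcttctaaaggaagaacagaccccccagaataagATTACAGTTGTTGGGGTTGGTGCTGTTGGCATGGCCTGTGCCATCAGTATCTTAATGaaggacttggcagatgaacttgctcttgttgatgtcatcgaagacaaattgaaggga

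For several enzymes an isozyme exists that serves another tissue. Of 15 isozymes on the list, 2 had a row in the tables used here. PFKM, the muscle form of phosphofructokinase, had 566 normalized counts with vehicle in the PF8503 table, and the signal per codon of PFKL was 3.51-fold higher than that of PFKM. Its log2 ratios were 0.092 with PF8503 and 0.12 with PF846. ALDOC, the brain form of aldolase, had 197 normalized counts, and the signal per codon of ALDOA was 84.2-fold higher. Its log2 ratios were 0.16 with PF8503 and -0.12 with PF846. Among the others, PFKP, GAPDHS, PGK2, PGAM2, PGAM4, ENO2, ENO3, PKLR, LDHB, LDHC, LDHAL6A and LDHAL6B had no row there and were not analysed here.

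The enzymes were then set beside 117 other genes of glucose metabolism, in 10 lists. Of these 80 were measured with PF8503 and 78 with PF846, with median log2 ratios of 0.018 and 0.0057. Past 0.1 on the log2 scale, 16 were higher and 6 lower with PF8503, and 8 were higher and 10 lower with PF846. As a share these were 27.5% of the measured genes with PF8503 and 23.1% with PF846, beside 39.1% and 26.9% of all transcripts past 0.1 in either direction. Past 0.5, PDK1 was the single gene of the lists with either compound. That is 1.25% of the measured genes with PF8503 and 1.28% with PF846, beside 1.32% and 0.475% of all transcripts. A count of 1 is no result about the lists.

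PDK1, the kinase that switches off pyruvate dehydrogenase and so holds pyruvate back from the citrate cycle, had 127 normalized counts with vehicle and 85.5 with PF8503, a log2 ratio of -0.57. In the PF846 table it had 116 with vehicle and 75.4 with PF846, a log2 ratio of -0.62. Both means were low in these tables, where the spread is wide, and PDK1 kept the same counted region in both. Its ratios share the same vehicle libraries, so they are not independent. PDP2, a phosphatase that reactivates pyruvate dehydrogenase, had low means too, with 105 normalized counts for vehicle and 115 for PF846 (0.14). Its log2 ratio was 0.18 with PF8503. The measured genes of this list had median log2 ratios of 0.0067 (PF8503) and 0.00086 (PF846).

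At the entry of the pathway, HK2, the hexokinase of tumour cells that phosphorylates glucose, had 1835 normalized counts with vehicle and 2106 with PF8503 (log2 ratio 0.20), and a log2 ratio of 0.048 with PF846. SLC16A3, an exporter of lactate, had 179 with vehicle and 225 with PF8503 (0.33), and a log2 ratio of 0.11 with PF846. SLC2A2, the glucose transporter of hepatocytes, had 541 with vehicle and 474 with PF846 (-0.19), and a log2 ratio of -0.071 with PF8503. HK2 and SLC16A3 were thus farther from 0 with PF8503 and SLC2A2 with PF846. The 8 measured genes of the list for glucose, lactate and pyruvate transport had medians of 0.038 (PF8503) and -0.034 (PF846).

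MLXIPL, the glucose-sensing transcription factor ChREBP, had 122 normalized counts with vehicle and 107 with PF846 (log2 ratio -0.19) and a log2 ratio of 0.17 with PF8503. Its partner MLX had 515 with vehicle and 562 with PF846 (0.13), and 0.056 with PF8503. In the citrate cycle, where 17 of 17 genes were measured, the medians were 0.0078 and 0.010. SDHD, a membrane anchor of succinate dehydrogenase, had 347 with vehicle and 460 with PF8503 (0.41), and 0.098 with PF846. SUCLA2, a subunit of succinyl-CoA ligase, had 350 with vehicle and 307 with PF8503 (-0.19), and -0.0064 with PF846.

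G6PC3, a glucose-6-phosphatase of the endoplasmic reticulum, differed from the other genes in how it was counted. It had 275 normalized counts with vehicle and 202 with PF8503, a log2 ratio of -0.45, and 475 with vehicle and 520 with PF846, a log2 ratio of 0.13. After the constant factor, its region in the PF8503 table held 53.0% of the vehicle reads of its region in the PF846 table, so the 2 values cover different codons. By the authors' methods a shortened region starts beyond the codon where treated and untreated cells differ most. A ratio over such a region is chosen through that difference and cannot be set beside whole-region ratios. G6PC3 was the single gene of the 78 in both tables whose region differed, and the other 77 kept the same region.

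**Figure D5:**
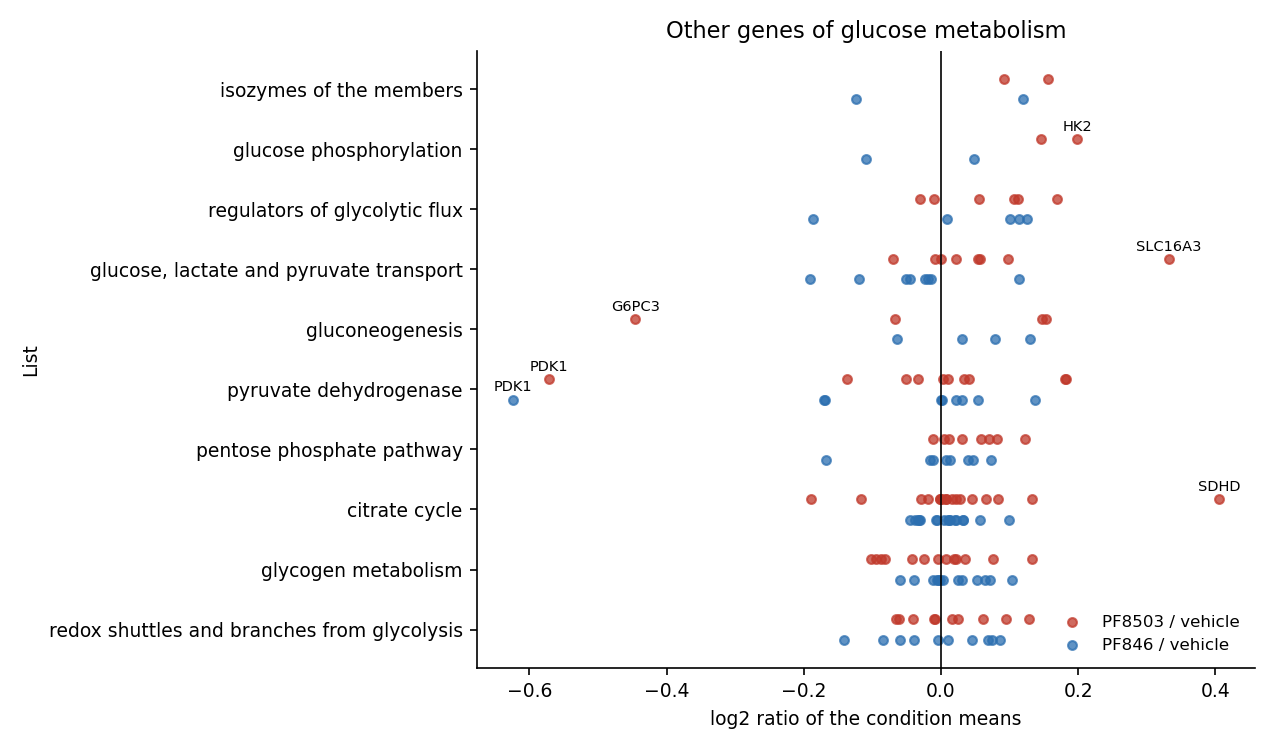
Log2 ratio of the compound mean over the vehicle mean for the measured genes of the 10 lists of glucose metabolism, 1 row per list, red for PF8503 (80 genes) and blue for PF846 (78 genes). Most points lie near 0, and PDK1 lies farthest to the left with both compounds (-0.57 and -0.62) while SDHD (0.41) and SLC16A3 (0.33) lie to the right with PF8503.

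Few transcripts are singled out by a pattern so near 0. Among the 1070 transcripts in both tables with a vehicle mean at least that of PFKL, the pairs of log2 ratios nearest to the median pair of the enzymes (0.039 and 0.0035) were those of TUBB4B (0.038 and 0.0055), SART3 (0.042 and 0.0013) and TMED9 (0.036 and 0.0024), by Euclidean distance over the 2 comparisons. Within a distance of 0.02 lay 43 transcripts.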

How the data were processed

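Ribosome-protected fragments of 9 Huh-7 libraries were profiled, 3 each with PF8503, PF846 and vehicle. Per the study's methods, the authors trimmed reads with the FASTX toolkit, removed ribosomal RNA, aligned the rest with Bowtie to canonical coding transcripts (GENCODE version 24, GRCh38) and kept single-position reads. Reads were summed from beyond DMax, the codon of largest difference between treated and untreated cells, where its Z score reached 2, and otherwise from 10 codons after the start, up to 10 codons before the end. Transcripts with more than 30 counts were kept. Versions of Bowtie and DESeq are not given in the sources used here. The authors deposited signal values, which are condition means of counts divided by DESeq size factors. Other columns hold the authors' own comparison (overall mean, fold change, its log2, p-values) and were not used. The replicate numbers of the supplementary text differ from those of the labels, so which libraries entered the means is not certain.

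Computed here were log2 ratios of the deposited means, with no pseudocount, shares and counts past 0.1 or 0.5. The steps were tested on simulated data. Coordinates and coding sequences come from GENCODE version 44 on GRCh38, where 9178 of 9221 symbols (99.5%) matched. The genes and lists were chosen with earlier results of these data known. Named were the 10 enzymes, their isozymes, for each compound the 3 highest and 3 lowest genes of the lists with a vehicle mean of at least 100 and any past 0.5, and the 3 transcripts nearest to the median of the enzymes. Results for some genes of the lists are not reported here. Other limits, centring, added counts and other lengths were tried as alternatives. Python 3.11.15, numpy 2.4.6, pandas 2.3.3, matplotlib 3.10.9 and biopython 1.88 were used.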

Additional observations from a re-analysis of the deposited data

How the results depend on the processing

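No paired analysis was possible because the tables hold condition means with no single library, and for the same reason neither the replicate block nor leaving out each replicate was run. The enzymes' median stayed above 0 under every alternative run, but some of these could hardly move it. All 10 enzymes kept the same counted region, and 1 added count is small beside their means. The enzymes are not replicates of a condition, and with PF846 4 of 10 lay below 0. The sign of the median is therefore no result about the enzymes. With PF8503 the median log2 ratio of 0.039 was 0.026 after centring on all transcripts and 0.038 to 0.041 without any 1 enzyme. With PF846 the median of 0.0035 was 0.00075 to 0.0063 without any 1 enzyme. Enzymes past the limit with PF8503 (1 at 0.1) numbered 4 at 0.05, 0 at 0.25, 0 at 0.5 and 0 after centring. Centring takes PGK1 below 0.1. With PF846 (0 at 0.1) they numbered 2 at 0.05. The enzymes' shares past 0.05 were thus 40% (PF8503) and 20% (PF846), below the 66.2% and 54.9% of all transcripts. Of the 80 other genes of glucose metabolism measured with PF8503, 22 past 0.1 became 4 at 0.25 (5%) and 1 at 0.5 (1.25%). Of the 78 with PF846, 18 became 1 at 0.25 and 1 at 0.5 (1.28% each). Among all transcripts, 8.02% (PF8503) and 3.79% (PF846) lay past 0.25, and 1.32% and 0.475% past 0.5. The median difference between the compounds (0.015) was 0.0034 after centring. The fold between GAPDH and PFKL (95.8) was 92.5 over all codons, 95.5 over unique windows and 110.5 with the shortest coding form of each enzyme, the last chosen after the data were seen. Depth per library is unknown, and differences as small as these cannot be told from replicate spread.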

Other observations

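Branches that leave glycolysis are given as ratios of condition means, with no test. In the pentose phosphate pathway, which makes NADPH and ribose from glucose 6-phosphate, 8 of 8 genes were measured, with median log2 ratios of 0.044 with PF8503 and 0.011 with PF846. Past 0.1 were H6PD with PF8503 (0.12), the enzyme that opens this pathway in the endoplasmic reticulum, and RPE with PF846 (-0.17), the epimerase of ribulose 5-phosphate. In glycogen metabolism 13 of 16 genes were measured, with medians of -0.0049 and 0.0031. GYS1, a glycogen synthase, had a log2 ratio of 0.13 with PF8503, and GYG2, a glycogenin that primes glycogen, one of 0.10 with PF846. Of the redox shuttles and side branches 10 of 12 were measured, with medians of 0.0030 and 0.0024, and past 0.1 were GPD1L with PF8503 (0.13) and GPT2, a mitochondrial alanine transaminase, with PF846 (-0.14). Of all transcripts, 39.1% (PF8503) and 26.9% (PF846) lay past 0.1 in either direction, so single genes past it are no result about these lists. Vehicle means were 320 (H6PD) and 414 (GPD1L) normalized counts beside PF8503, where the median transcript had 397. Beside PF846 they were 137 (RPE) and 334 (GPT2), where the median transcript had 382. All genes named in this paragraph were chosen after their values were seen.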
